A study of Homo sapiens with 24 samples.

Results

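The 10 genes described here are the TEAD transcription factor TEAD1, its co-activator YAP1 and 8 genes known as YAP targets, ANKRD1, CCN1, CCN2, AMOTL2, AXL, LATS2, AJUBA and CRIM1. They were matched by gene symbol among the 35993 symbols of the count table. All 10 were found, and all 10 passed the filter on low counts in both cell lines. RNA was measured in 24 libraries of the human bladder cancer lines J82 and RT-112, in 8 groups of 3 biological replicates: the parental line, a CD44 Low line, a CD44 High line and a CD44v6 line in each background. CD44 is a cell surface receptor for hyaluronan, and CD44v6 names its variants that carry variant exon v6. The labels do not say how the Low, High and v6 lines were made, whether each is a single clone, or whether the cells were given any agent. ANKRD1 had been picked because it differed between CD44 High or CD44v6 cells and CD44 Low cells, so for all 10 genes those contrasts are given as a description without a test. The contrasts with parental cells are tested, but they use the same CD44 Low, High and v6 libraries. That pick favoured a low ANKRD1 level in CD44 Low libraries, so tests of ANKRD1 against parental cells are not independent of it.

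YAP and its paralog TAZ are co-activators that the Hippo kinases MST and LATS keep in the cytoplasm by phosphorylation. Once in the nucleus they act through TEAD factors, since neither has a DNA-binding domain of its own. Their targets include the secreted matrix proteins CCN1 and CCN2, the nuclear ankyrin repeat protein ANKRD1, membrane proteins such as AXL, and inhibitors that feed back on the pathway such as LATS2 and AMOTL2. In epithelial cells the pathway is known for its response to cell density, cell shape and matrix stiffness.

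TEAD factors bind a short DNA element with the core GGAATG, which reads CATTCC on the opposite strand. RefSeq promoter windows (GRCh38.p14) were at hand for 7 of the 10 genes, and 6 of the 7 held the core on either strand within the 250 bases before a start site. Counted by window, since 3 of these genes have 2 start sites, 6 of 10 held it. Of 35116 such windows over all genes, 11.9% held it, 0.94% held at least 2 copies and 0.0826% held at least 3. CCN2 and ANKRD1 are shown because they held the most copies, 3 and 2, and because their levels lay on opposite sides of the parental ones in J82 CD44 Low cells. The sequences run 5′ to 3′ along the gene, which lies on the minus strand, with the core in capitals. CCN2 is the whole window of 250 bases before its start, and ANKRD1 is given as 30-base stretches around each copy because GENCODE 29 starts that gene 189 bases upstream of the RefSeq start. The counts were made on GRCh37, the older build named in the submitters' processing notes.
CCN2, chr6:131951373-131951622: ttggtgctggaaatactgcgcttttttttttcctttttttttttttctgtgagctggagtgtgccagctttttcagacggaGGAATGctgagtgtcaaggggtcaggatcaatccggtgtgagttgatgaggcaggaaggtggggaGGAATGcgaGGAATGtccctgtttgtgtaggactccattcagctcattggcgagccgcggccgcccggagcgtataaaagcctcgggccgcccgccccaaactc
ANKRD1 distal copy, chr10:90921290-90921319: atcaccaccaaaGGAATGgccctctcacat
ANKRD1 proximal copy, chr10:90921198-90921227: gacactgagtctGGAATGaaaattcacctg
The CCN2 copies began 169, 104 and 95 bases before the start, and the ANKRD1 copies 220 and 128 bases before it. YAP1, AJUBA, AMOTL2 and AXL held 1 copy each. These are matches of letters, and binding was not measured.

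The libraries held 16752825 to 24419670 counts. Levels are given as CPM, the counts of a gene scaled to the library size with TMM factors over all 24 libraries, a unit that does not correct for gene length. CD44 followed the labels in J82, at 258 to 304 CPM in CD44 Low, 399 to 492 in parental, 718 to 777 in CD44 High and 636 to 1069 in CD44v6 libraries. In RT-112 it was at 119 to 150.3, 293 to 348, 341 to 492 and 368 to 512 CPM in the same order. Parental and CD44 High libraries thus overlapped there. CD44 was counted over the whole gene, which cannot show exon v6, so the CD44v6 label was not checked. All 11 epithelial and urothelial markers were above 1 CPM in RT-112 and 6 or 7 of them in J82, where KRT5 and UPK2 were at 0. EPCAM and CDH1 were near that cut in J82, with group means of 1.09 to 2.35 and 0.518 to 5.65 CPM. In RT-112 they were at 284 to 407 and 305 to 353 CPM. The others above 1 CPM in J82 were KRT7, KRT8, KRT18, KRT19 and PPARG, with PPARG lowest at 20.7 CPM in CD44 Low cells. The summed level of 7 fibroblast genes was 1085 to 1330 CPM in J82 CD44 Low libraries, against 592 to 673 in parental, 444 to 490.1 in CD44 High and 446 to 555 in CD44v6 libraries. In RT-112 that sum was 213 to 271 CPM in CD44 Low and 116 to 197 in the other groups. Most of the sum was 1 gene in each line. COL3A1 was at a mean of 1088 CPM in J82 CD44 Low and 579 in parental cells, and LUM at 231 and 176 in RT-112. COL3A1 was below 1 CPM in the mean of every RT-112 group. In J82 COL1A1, COL1A2, LUM and PDGFRB also had their highest group mean in CD44 Low cells. The fibroblast gene DCN was at 0 in both lines, and the leukocyte genes PTPRC and CD3E were at 0 throughout 6 and 7 of the 8 groups. CD68, a lysosomal gene on the leukocyte list, was at 153 to 176 CPM in J82 parental, 75.7 to 123 in CD44 Low, 142 to 222 in CD44 High and 104 to 191 in CD44v6 libraries, and below 13.3 CPM in all RT-112 libraries. The part of these shifts in the results on CD44 Low cells was not tested. In bulk RNA, fewer cells with a transcript and less transcript per cell cannot be told apart.

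ANKRD1 fell in CD44 Low cells of both lines, being 3.71-fold lower than in parental cells in J82 and 2.06-fold lower in RT-112. AJUBA also fell in J82, by 0.29 on the log2 scale, and no other member passed the test there or in RT-112. CCN1 and CCN2, the other classical YAP targets, did not fall in J82 CD44 Low cells. All 3 CD44 Low libraries were above all parental ones for both genes, with changes that missed the threshold in the edgeR fit of the line. CCN2 passed it with DESeq2 and in some other fits. In CD44 High and CD44v6 cells no member passed the test against parental cells. The parental lines themselves differed at all 10 genes, 9 of them higher in J82. Of all genes tested there, 62% were called, 31% higher and 31% lower in J82.

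**Figure D1:**
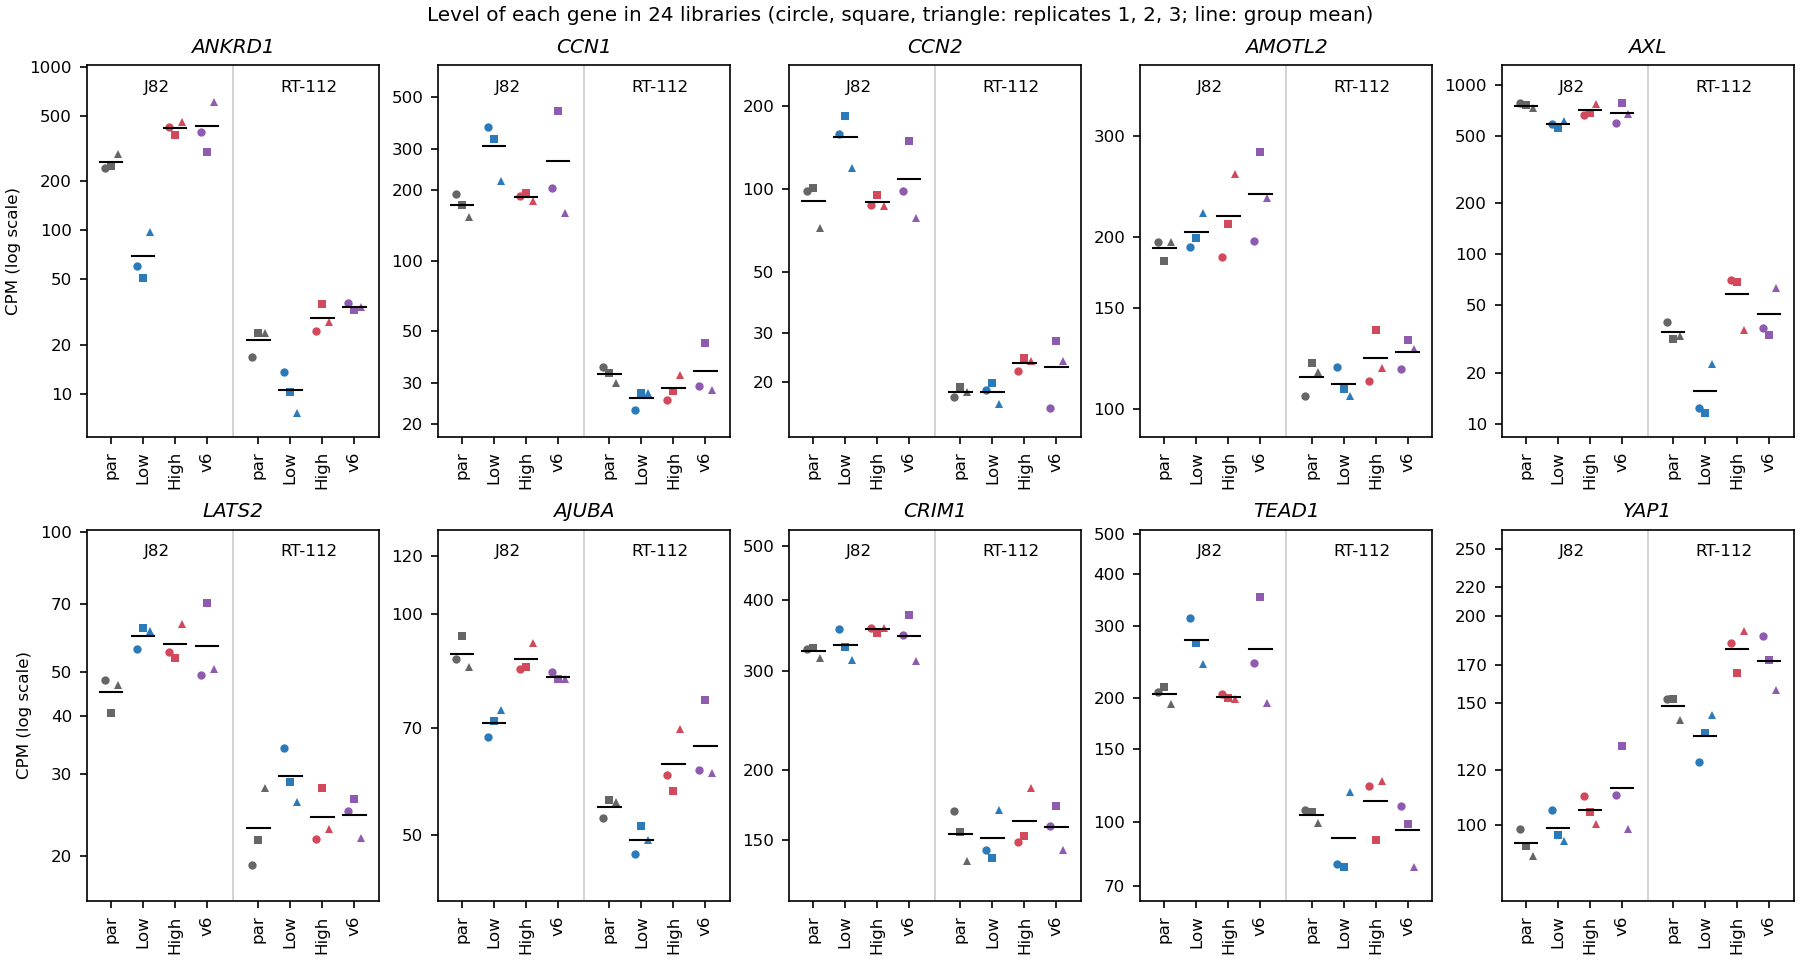
Level of each of the 10 genes in all 24 libraries, as CPM on a log axis, with parental (par), CD44 Low, CD44 High and CD44v6 groups side by side for J82 on the left and RT-112 on the right of each panel. Points are libraries (circle, square and triangle for replicates 1, 2 and 3) and lines are group means. ANKRD1 is lowest in the CD44 Low libraries of both lines, and CCN1 and CCN2 are highest in the J82 CD44 Low libraries and replicate 2 of J82 CD44v6.

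ANKRD1 encodes an ankyrin repeat protein of the nucleus and the sarcomere and is among the most used readouts of YAP activity. In J82 its level was 242, 249 and 293 CPM in the parental libraries and 60.7, 51.4 and 97.5 CPM in CD44 Low. It was 427, 385 and 461 CPM in CD44 High and 401, 303 and 608 CPM in CD44v6 libraries. The CD44 Low libraries were thus all below, and the CD44 High and CD44v6 libraries all above, every parental library, while CD44 High and CD44v6 overlapped. The change in CD44 Low against parental cells was -1.89 (SE 0.24, n = 3 per group, adjusted p = 0.000596, edgeR quasi-likelihood test). In CD44 High and CD44v6 cells the changes were 0.68 (SE 0.23, adjusted p = 0.15) and 0.72 (SE 0.23, adjusted p = 0.118) with edgeR, short of the threshold over all genes tested.

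In RT-112 ANKRD1 was lower in every group. Its level was 16.7, 23.6 and 23.6 CPM in parental and 13.5, 10.2 and 7.61 CPM in CD44 Low libraries. CD44 High libraries held 24.3, 35.6 and 27.3 CPM, and CD44v6 libraries 36.0, 32.6 and 33.7 CPM. The groups stood in the same order as in J82, with CD44 Low below and the other two above all parental libraries. CD44 Low against parental cells gave -1.04 (SE 0.20, n = 3 per group, adjusted p = 0.0145 in edgeR). This call was lost when 1 library was left out in 3 of 6 cases, with adjusted p = 0.0745 without parental replicate 2, 0.0575 without parental replicate 3 and 0.0638 without CD44 Low replicate 2 in edgeR, while the change stayed between -1.27 and -0.87. CD44 High and CD44v6 cells gave 0.46 (SE 0.19, adjusted p = 0.346) and 0.67 (SE 0.19, adjusted p = 0.125) in the same fit with edgeR.

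CCN1 (CYR61) and CCN2 (CTGF) are secreted matricellular proteins that bind integrins and are induced within hours of YAP activation. In J82 CCN1 was at 192, 174 and 154 CPM in parental libraries and at 372, 333 and 219.6 CPM in CD44 Low. The CD44 High libraries, at 189, 194 and 179.9 CPM, overlapped the parental ones. CD44v6 libraries spread widely, at 205, 438 and 161 CPM. All 3 CD44 Low libraries were above all parental and all CD44 High libraries. The change in CD44 Low against parental cells was 0.86 (SE 0.30, n = 3 per group, adjusted p = 0.122 in edgeR).

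CCN2 showed the same layout in J82 at a lower level. It was at 98.2, 101 and 72.3 CPM in parental libraries and at 159, 185 and 119.8 CPM in CD44 Low. The CD44 High libraries held 87.8, 95.6 and 87.2 CPM, and the CD44v6 libraries 98.2, 149 and 78.6 CPM. CD44 Low was again above every parental and CD44 High library, with 0.80 (SE 0.23, n = 3 per group, adjusted p = 0.0602 in edgeR) against parental cells. Without CD44 Low replicate 3, the library with the lowest CCN2 of its group, the change was 0.96 and passed the test (adjusted p = 0.0328, edgeR). CCN2 was also called higher by DESeq2 (0.80, adjusted p = 0.00683). In edgeR it passed with a replicate block (adjusted p = 0.00606), with only the compared groups (0.026) and with all 24 libraries in 1 fit (0.0247). It did not pass with other scalings or with no filter.

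Replicate 2 of J82 CD44v6 stood apart in the CCN genes. It held 2.72 times the CCN1, 1.90 times the CCN2 and 1.81 times the TEAD1 level of replicate 3, together with the lowest ANKRD1 and the highest CD44 of its group. Without it the CD44v6 means were 183 CPM for CCN1, 88.4 for CCN2 and 219 for TEAD1 (n = 2), near the parental means of 173 ± 19.3, 90.6 ± 15.9 and 204 ± 9.95 CPM (SD, n = 3). CCN1 in CD44v6 against parental cells was 0.62 (SE 0.30, adjusted p = 0.28) with this library and 0.05 (adjusted p = 0.945) without it, both in edgeR.

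In RT-112 both CCN genes varied less between groups. CCN1 was at 35.3, 33.0 and 30.1 CPM in parental, 23.0, 27.3 and 27.3 in CD44 Low, 25.4, 27.8 and 32.6 in CD44 High and 29.3, 44.4 and 28.0 in CD44v6 libraries. The CD44 Low libraries were all below the parental ones, the reverse of J82, with -0.36 (SE 0.16, n = 3 per group, adjusted p = 0.252 in edgeR). CCN2 was at 17.6, 19.1 and 18.4 CPM in parental and 18.6, 19.8 and 16.6 CPM in CD44 Low libraries, which overlapped. Its CD44 High libraries, at 21.9, 24.4 and 23.7 CPM, were above both, and the CD44v6 libraries ran from 16.0 to 28.1 CPM. CCN2 in CD44 High against parental cells gave 0.36 (SE 0.16, n = 3 per group, adjusted p = 0.397 in edgeR).

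**Figure D2:**
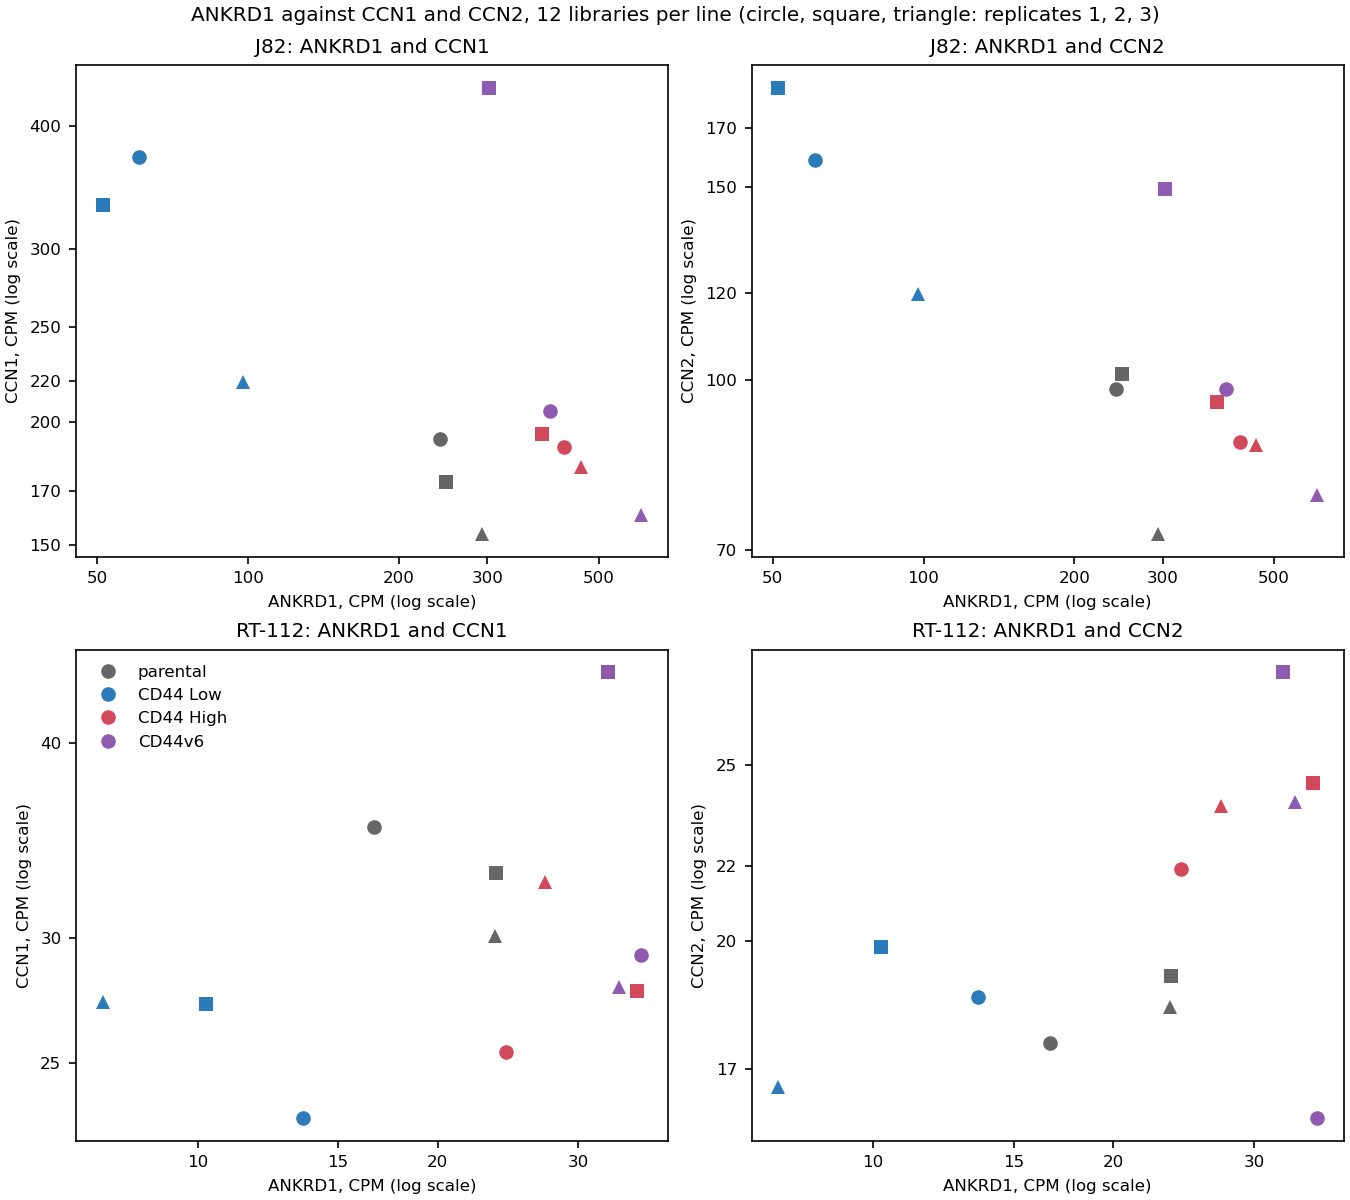
ANKRD1 on the x axis against CCN1 (left) and CCN2 (right) on the y axis, in CPM on log axes, for the 12 libraries of J82 (top) and of RT-112 (bottom). Colours give the group and symbols the replicate. In J82 the CD44 Low libraries sit at low ANKRD1 and high CCN1 and CCN2, and the CD44 High libraries at high ANKRD1 and lower CCN1 and CCN2, whereas in RT-112 the points show no such arrangement.

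Across the 12 J82 libraries, ANKRD1 and CCN2 ran against each other in log2 CPM (Pearson r = -0.81, Spearman rho = -0.74), and so did ANKRD1 and CCN1 (r = -0.61, rho = -0.51). CCN1 and CCN2 varied together (r = 0.92, rho = 0.86), and TEAD1 tracked CCN1 (r = 0.97, rho = 0.90). In the 12 RT-112 libraries ANKRD1 and CCN2 gave r = 0.52 (rho = 0.43), and ANKRD1 and CCN1 r = 0.35 (rho = 0.30). These values describe libraries that share 4 groups and their scaling, and they carry no test.

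YAP1, the co-activator itself, varied little in J82. It was at 98.9, 93.4 and 90.5 CPM in parental, 105, 97.0 and 94.9 in CD44 Low, 110.2, 105 and 101 in CD44 High and 111, 129.9 and 98.8 in CD44v6 libraries. In RT-112 it was higher throughout, at 152, 152 and 142 CPM in parental and 123, 136 and 144 CPM in CD44 Low libraries. CD44 High libraries held 183, 165 and 190.2 CPM and CD44v6 libraries 187, 173 and 156 CPM, in both groups above every parental library. The changes against parental cells in RT-112 were 0.29 (SE 0.09, adjusted p = 0.213) in CD44 High and 0.20 (SE 0.09, adjusted p = 0.309) in CD44v6 cells with edgeR, n = 3 per group.

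TEAD1, one of the 4 DNA-binding TEAD factors, was at 207, 212 and 193 CPM in J82 parental libraries and at 314, 273 and 242 CPM in CD44 Low. CD44 High libraries were tightly placed at 205, 200.3 and 199 CPM, and CD44v6 libraries spread over 243, 353 and 195 CPM. The CD44 Low libraries were all above the parental and CD44 High ones, with 0.46 against parental cells (SE 0.18, n = 3 per group, adjusted p = 0.151 in edgeR). CD44v6 against parental cells gave 0.36 (SE 0.18, adjusted p = 0.288 in edgeR), and passed the test without CD44v6 replicate 3 at 0.55 (adjusted p = 0.0476, edgeR). In RT-112 all groups overlapped for TEAD1, over 77.6 to 126 CPM.

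AJUBA, a LIM protein that binds LATS kinases and restrains them, was the second gene called in J82 CD44 Low. Its libraries were at 86.8, 93.4 and 84.7 CPM in parental and at 68.1, 71.4 and 73.9 CPM in CD44 Low cells. CD44 High libraries (84.1, 84.8 and 91.4 CPM) and CD44v6 libraries (83.3, 81.6 and 81.5 CPM) all lay above CD44 Low. The change against parental cells was -0.29 (SE 0.08, n = 3 per group, adjusted p = 0.0441, edgeR). It lost the call whichever of the 6 libraries was left out, with adjusted p from 0.0661 without CD44 Low replicate 3 to 0.198 without parental replicate 2 in edgeR and a change from -0.32 to -0.25. In RT-112 AJUBA was at 52.7, 55.8 and 55.5 CPM in parental and 47.1, 51.4 and 49.2 CPM in CD44 Low libraries. The CD44 High libraries (60.4, 57.4 and 69.7 CPM) and CD44v6 libraries (61.4, 76.3 and 60.7 CPM) were all above parental ones, with 0.21 (adjusted p = 0.44) and 0.26 (adjusted p = 0.241) in edgeR.

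LATS2, the kinase that phosphorylates YAP and is itself induced by it, was the 1 member of 10 with a change above 0 in RT-112 CD44 Low cells. In J82 it was at 48.0, 40.7 and 46.8 CPM in J82 parental libraries and at 56.0, 62.2 and 61.2 CPM in CD44 Low, which did not overlap. CD44 High libraries held 55.1, 53.5 and 63.5 CPM and CD44v6 libraries 49.3, 70.3 and 50.6 CPM, also all above parental. The changes against J82 parental cells were 0.43 (SE 0.14, adjusted p = 0.0923), 0.32 (SE 0.14, adjusted p = 0.269) and 0.31 (SE 0.14, adjusted p = 0.235) in that order, with edgeR. In RT-112 the libraries were at 19.1, 21.7 and 28.1 CPM in parental and 34.2, 28.9 and 26.2 CPM in CD44 Low cells. All groups overlapped there, and CD44 Low against parental cells gave 0.35 (SE 0.15, n = 3 per group, adjusted p = 0.219 in edgeR).

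AMOTL2, an angiomotin that holds YAP at cell junctions, was at 181 to 196 CPM in J82 parental, 192 to 219.8 in CD44 Low, 184 to 258 in CD44 High and 197 to 281 in CD44v6 libraries. The CD44v6 libraries were all above the parental ones by a small margin, with 0.30 (SE 0.13, n = 3 per group, adjusted p = 0.246 in edgeR). In RT-112 all AMOTL2 libraries lay between 105 and 138 CPM and every pair of groups overlapped.

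AXL is a receptor tyrosine kinase linked to invasion and drug tolerance in many carcinomas, and its group means spanned a wider range in RT-112. In J82 it was at 777, 755 and 725 CPM in parental libraries and at 590.2, 558 and 611 CPM in CD44 Low. CD44 High libraries held 662, 685 and 776 CPM and CD44v6 libraries 597, 783 and 669 CPM. CD44 Low was below every parental library, at -0.34 (SE 0.10, n = 3 per group, adjusted p = 0.0655 in edgeR).

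In RT-112 AXL was at 40.0, 31.5 and 32.8 CPM in parental and at 12.4, 11.6 and 22.6 CPM in CD44 Low libraries. The CD44 High libraries were at 70.0, 68.7 and 35.8 CPM and the CD44v6 libraries at 36.6, 33.3 and 63.4 CPM. CD44 Low was below all parental libraries, while CD44 High and CD44v6 overlapped them. CD44 Low against parental cells gave -1.18 (SE 0.33, n = 3 per group, adjusted p = 0.0701, edgeR), and -1.57 (adjusted p = 0.0234, edgeR) without CD44 Low replicate 3, the library with the highest AXL of its group. The ratio of the highest to the lowest group mean was 1.28 in J82 and 3.75 in RT-112. The J82 minus RT-112 difference of the AXL change was not called in edgeR. Adjusted p was 0.295 for CD44 Low and 0.401 for CD44 High against parental cells.

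CRIM1, a membrane protein with cysteine-rich repeats, moved least. Its ratio of highest to lowest group mean was 1.09 in J82, over 312 to 377 CPM, and 1.07 in RT-112, over 138 to 185 CPM. By the same measure ANKRD1 spanned 6.26 in J82 and 3.26 in RT-112.

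**Figure D3:**
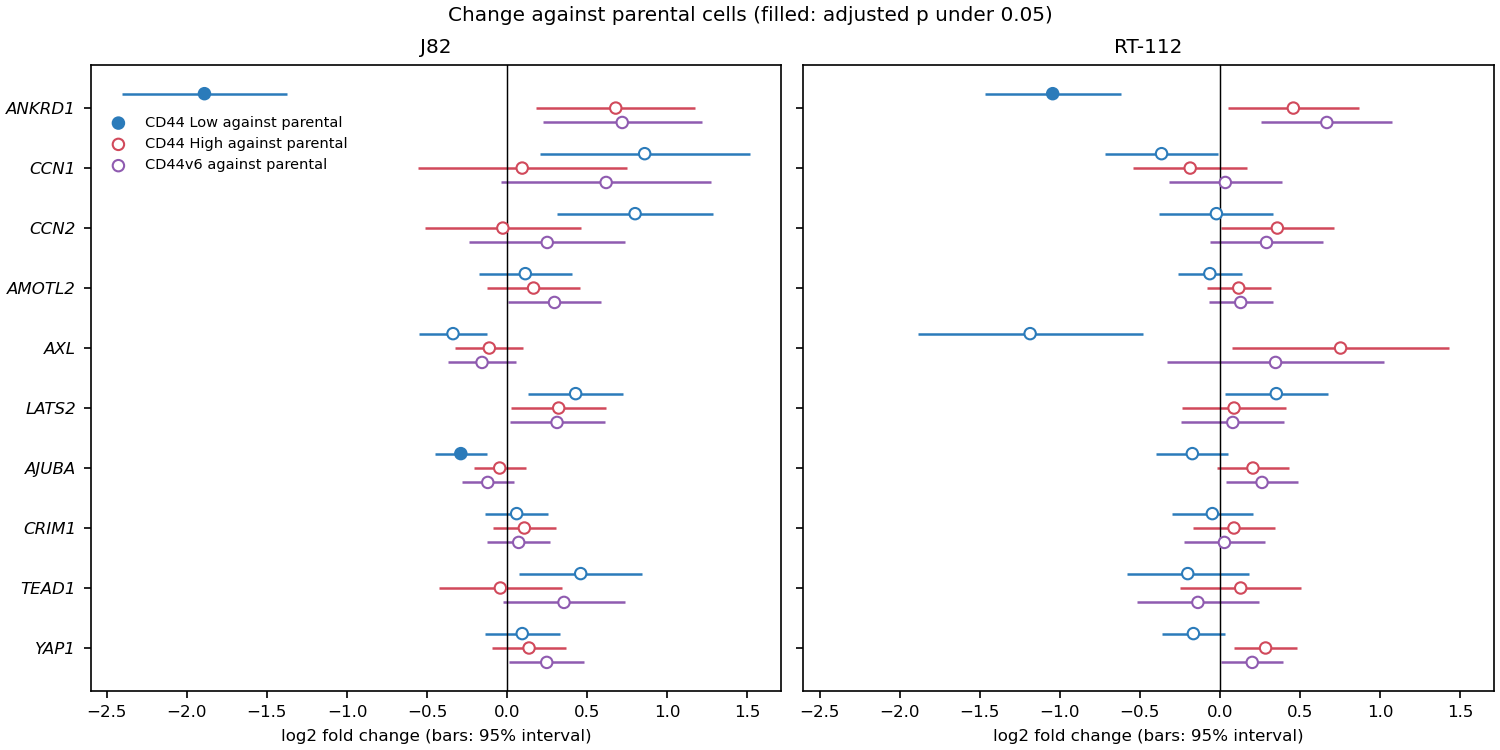
Log2 fold change of each gene in CD44 Low, CD44 High and CD44v6 cells against parental cells, for J82 (left) and RT-112 (right), from the edgeR fit of each line. Bars are 95% intervals and filled points have an adjusted p under 0.05. The filled points are ANKRD1 in CD44 Low cells of both lines and AJUBA in J82 CD44 Low cells.

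Counted over the 10 genes, 2 fell and none rose in the edgeR fit of J82 CD44 Low against parental cells. There 5.34% of the 15951 genes tested were called and 3.08% fell. ANKRD1, picked from these CD44 Low libraries, is among the members that fell here and in RT-112. At an unadjusted p under 0.05 edgeR had 7 members, beside 22.2% of all genes. DESeq2 called ANKRD1, AJUBA and AXL lower and CCN2 and LATS2 higher. The share of all genes called by DESeq2 was not counted, for this or any other contrast. The groups did not overlap for 7 members, 3 lower and 4 higher, against 32% of all genes in either direction. In RT-112 CD44 Low 1 of 10 fell, where 3.2% of 15645 genes were called and 1.87% fell. There 4 members did not overlap, all lower, against 27% of all genes. In edgeR 4 members were at an unadjusted p under 0.05, beside 18.9% of all genes, and DESeq2 called AXL and ANKRD1, both lower. The median change of the 10 genes was 0.10 in J82 and -0.17 in RT-112, with 0.00 and -0.01 over all genes.

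No member was called by the edgeR fit of each line in the other contrasts with parental cells. At an unadjusted p under 0.05 in edgeR, all genes gave 15.8% in J82 CD44 High and 19.7% in J82 CD44v6 cells. The shares in RT-112 were 12.3% and 15.3%. In J82 CD44 High cells 2.94% of all genes were called and 29.6% did not overlap. There 4 members did not overlap, all higher (ANKRD1, LATS2, CRIM1 and YAP1), with 2 members at an unadjusted p under 0.05 in edgeR and 1, ANKRD1, called by DESeq2. In J82 CD44v6 cells 2.6% of all genes were called and 26.4% did not overlap, among them 4 members (ANKRD1, AMOTL2 and LATS2 higher, AJUBA lower), with 4 members at an unadjusted p under 0.05 and again ANKRD1 called by DESeq2. In RT-112 CD44 High cells 0.511% of all genes were called and 17.2% did not overlap, among them 4 members, all higher (ANKRD1, CCN2, AJUBA and YAP1), with 4 members at an unadjusted p under 0.05 and none by DESeq2. In RT-112 CD44v6 cells 0.614% of all genes were called and 25.5% did not overlap, among them 3 members, all higher (ANKRD1, AJUBA and YAP1), with 3 members at an unadjusted p under 0.05 and ANKRD1 called by DESeq2.

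In CD44v6 against CD44 High cells no member was called by edgeR or DESeq2, and edgeR called 0% of all genes in J82 and in RT-112. The edgeR counts at an unadjusted p under 0.05 were 1 member in J82, TEAD1, and 0 in RT-112. All genes gave 9.63% and 4.25% at that level. AJUBA in J82, lower in CD44v6, was the 1 member whose libraries did not overlap, and RT-112 had 0, against 11.9% and 7.01% of all genes. The members' changes ran from -0.07 to 0.52 in J82 and from -0.41 to 0.22 in RT-112.

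The contrast of CD44 High with CD44 Low, from which ANKRD1 was picked, is given as a description. In J82 the differences were 2.57 (SE 0.24) for ANKRD1, 0.24 (SE 0.08) for AJUBA and 0.23 (SE 0.10) for AXL. They were -0.83 (SE 0.23) for CCN2, -0.76 (SE 0.30) for CCN1 and -0.50 (SE 0.18) for TEAD1. Each of these 6 genes had CD44 High and CD44 Low libraries that did not overlap, and the set was split, 3 higher and 3 lower, where 34.5% of all genes did not overlap. In RT-112 the differences were 1.94 (SE 0.33) for AXL, 0.45 (SE 0.09) for YAP1, 0.38 (SE 0.10) for AJUBA and 0.38 (SE 0.16) for CCN2, and ANKRD1 was 2.83-fold higher. These 5 did not overlap and were all higher in CD44 High, where 30.4% of all genes did not overlap.

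CD44v6 against CD44 Low gave a like picture. ANKRD1 was higher by 2.61 (SE 0.24) in J82 and by 1.71 (SE 0.20) in RT-112. In J82 CCN2 was at -0.55 (SE 0.22) with overlapping libraries, and at -0.85 without CD44v6 replicate 2. In RT-112 AXL was higher by 1.53 (SE 0.33), AJUBA by 0.44 (SE 0.10), CCN1 by 0.40 (SE 0.16) and YAP1 by 0.37 (SE 0.09), each with libraries that did not overlap. Libraries did not overlap for 2 members in J82, ANKRD1 and AJUBA, and for 5 in RT-112, against 23% and 36.9% of all genes.

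The parental lines were compared in a fit of all 24 libraries. All 10 genes were called, 9 higher and 1 lower in J82, where 62% of the 17438 genes tested were called, 31% higher and 31% lower. The libraries of the lines did not overlap for any of the 10, as for 74.1% of all genes. AXL differed most, at 4.44 (SE 0.28, adjusted p = 6.37e-12, edgeR), followed by ANKRD1 at 3.61 (SE 0.25, adjusted p = 3.82e-11, edgeR). CCN1 and CCN2 were higher in J82 by 2.40 (SE 0.28) and 2.30 (SE 0.22). CRIM1, TEAD1, LATS2, AMOTL2 and AJUBA were higher by 0.69 to 1.08. YAP1 alone was lower in J82, at -0.65 (SE 0.10, adjusted p = 5.78e-06, edgeR). AXL, ANKRD1, CCN1 and CCN2 thus had the largest differences between the lines, while that of the co-activator had the opposite sign.

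Corrected for the length of their exons in GENCODE 29, the members of J82 parental cells were led by AXL at 154 ± 5.30 CPM per kilobase and ANKRD1 at 132 ± 14.1 (SD, n = 3). CCN1 was at 75.7 ± 8.41, CRIM1 at 54.9 ± 1.22, AMOTL2 at 39.9 ± 1.75 and CCN2 at 38.7 ± 6.80 CPM per kilobase. TEAD1, AJUBA, YAP1 and LATS2 followed at 22.0 ± 1.07, 18.5 ± 0.950, 16.7 ± 0.763 and 8.19 ± 0.707. AMOTL2 and CCN2 were within their spread of each other. In RT-112 parental cells the order was different, with YAP1 (26.4 ± 1.05) and CRIM1 (26.0 ± 2.65) at the top and within their spread, then AMOTL2 at 23.8 ± 1.59 CPM per kilobase. CCN1, AJUBA, TEAD1 and ANKRD1 lay between 14.3 and 10.8, and CCN2, AXL and LATS2 were lowest at 7.85 ± 0.331, 7.10 ± 0.93 and 4.16 ± 0.836. CCN2 and AXL were within their spread of each other there, so AXL led in J82 and was among the lowest in RT-112.

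Whether the lines changed differently was tested as the J82 minus RT-112 difference of each change. No member passed in the 4 such comparisons with edgeR, in which 1.06% (CD44 Low against parental), 0.241% (CD44 High against parental), 0.138% (CD44v6 against parental) and 0.00573% (CD44v6 against CD44 High) of all genes were called. For CD44 Low against parental cells, CCN1 came nearest, at 1.19 (SE 0.38, adjusted p = 0.146 in edgeR). At an unadjusted p under 0.05 the edgeR counts of members were 5, 1, 1 and 1 in that order. All genes gave 13.8%, 9.43%, 14.4% and 9.44% at that level. DESeq2 called 1 member in the first, CCN1, and 1 in the third, AJUBA, and 0 in the other two.

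Genes whose levels followed ANKRD1 closely in both lines were ranked among 8725 genes by the smaller of their Pearson correlations in log2 CPM over the 12 libraries of each line. PODXL, a sialomucin of the cell surface, came first with r = 0.95 in J82 and 0.96 in RT-112. CDCA5 (sororin), which protects sister chromatid cohesion, gave 0.93 and 0.96. ADRM1, a ubiquitin receptor of the proteasome, gave 0.93 and 0.94, and ZWINT, a kinetochore protein, 0.95 and 0.92. Like ANKRD1, these 4 genes had their lowest group mean in CD44 Low cells of both lines. In J82, PODXL was at 372 ± 42.9 CPM in parental, 119 ± 28.9 in CD44 Low, 681 ± 51.2 in CD44 High and 635 ± 110.3 in CD44v6 cells (SD, n = 3). In RT-112 PODXL was at 109, 78.0, 128 and 151 CPM in the same order, with SDs from 8.45 to 22.4. These genes were chosen from the same libraries, which share groups and scaling, so the correlations are a description.

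Another 56 genes of the pathway and its neighbours were read from the same fits, in 4 lists that hold no member. They are 7 partners and cofactors, 23 Hippo kinases and upstream regulators, 15 other YAP and TAZ targets, and 11 targets of SRF and MRTF, a cytoskeleton-responsive pathway that shares targets with YAP. The 4 lists were chosen with earlier results of these data known, so their shares and p-values are not an independent check. In J82 54 of the 56 genes and in RT-112 52 passed the filter. In CD44 High against CD44 Low, 7 were higher and 9 lower in J82 (29.6% called), and 10 higher and 5 lower in RT-112 (28.8% called), where all genes gave 15.7% (8.83% up, 6.9% down) for J82 and 16% (9.01% up, 7.02% down) for RT-112. Leaving out a library brought these counts to 9 without J82 CD44 High replicate 2, to 8 without RT-112 CD44 Low replicate 1 and to 4 without RT-112 CD44 High replicate 1. The other 9 of the 12 omissions stayed within 1.5 times of the full count. In CD44v6 against CD44 Low, 7 were higher and 6 lower in J82 (24.1% called), and 8 higher and 6 lower in RT-112 (26.9% called). All genes gave 9.58% (6.18% up, 3.4% down) for J82 and 16% (7.97% up, 8.03% down) for RT-112. Those counts dropped to 6, 8 and 8 without J82 CD44 Low replicates 1, 2 and 3, to 5 and 7 without J82 CD44v6 replicates 1 and 3, to 9 and 8 without RT-112 CD44 Low replicates 1 and 2, and to 5 without RT-112 CD44v6 replicate 3.

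**Figure D4:**
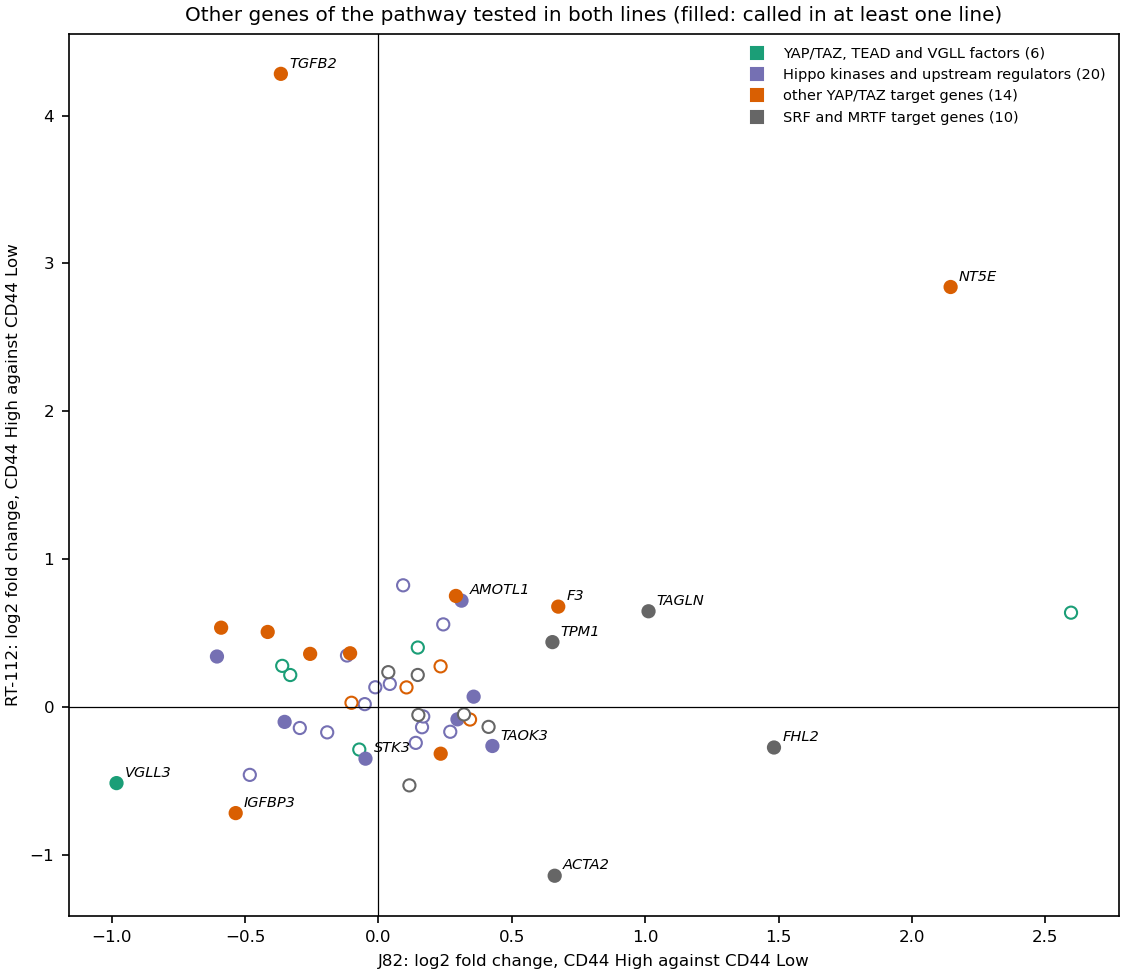
Log2 fold change in CD44 High against CD44 Low cells for the 50 genes of the 4 wider lists tested in both lines, J82 on the x axis and RT-112 on the y axis. Colours give the list, and filled points passed the test in at least 1 line. Labels mark genes called with 1 sign in both lines or with the largest called increase or decrease of a list in a line. NT5E lies at 2.14 and 2.84, F3 and TPM1 were higher and IGFBP3 lower in both lines, and TGFB2 was far above 0 in RT-112 only, at 4.28 against -0.37 in J82.

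Among the other YAP and TAZ targets, 2 were higher and 4 lower of 15 in J82 CD44 High against CD44 Low cells (40%), and 7 higher and 2 lower of 14 in RT-112 (64.3%), beside 15.7% and 16% of all genes, with medians of -0.10 and 0.36 beside -0.02 and 0.02 over all genes. NT5E, the ectoenzyme CD73 that makes adenosine, rose in both, by 2.14 (SE 0.11, adjusted p = 2.15e-07) and 2.84 (SE 0.20, adjusted p = 1.58e-05) with edgeR. It was at 33.8 ± 4.26 CPM in J82 CD44 Low and 154 ± 6.52 in CD44 High cells, and at 11.2 ± 1.15 and 78.1 ± 22.4 CPM in RT-112 (SD, n = 3). F3, the coagulation initiator tissue factor, was higher by 0.67 (SE 0.09) and 0.68 (SE 0.15), the latter with adjusted p = 0.0574 in edgeR without RT-112 CD44 High replicate 1. IGFBP3, a secreted carrier of insulin-like growth factors, was lower by 0.54 and 0.71 (-0.54, SE 0.10, and -0.71, SE 0.10). In J82 RBMS3, an RNA-binding protein, was at -1.12 (SE 0.19, adjusted p = 0.00151 in edgeR). TGFB2, a TGF-beta ligand, rose from 0.870 ± 0.654 to 17.0 ± 11.0 CPM in RT-112 (4.28, SE 0.82, adjusted p = 0.00457 in edgeR), while J82 held it at 595 ± 72.5 and 476 ± 70.6 CPM.

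Against parental cells the same list gave 1 higher and 2 lower in CD44 Low of each line (20% and 21.4%, beside 5.34% and 3.2% of all genes). NT5E fell with CD44 Low in both, by 1.45 (SE 0.11, adjusted p = 4.6e-05) in J82 and by 1.97 (SE 0.20, adjusted p = 0.000386) in RT-112 with edgeR, and no omission of a library ended these calls. In J82 CD44 High cells 1 was higher and 2 lower against parental cells (20%, beside 2.94% of all genes), and in J82 CD44v6 cells 0 and 2 (13.3%, beside 2.6%). NT5E was the gene that rose in CD44 High, by 0.69 (SE 0.11, adjusted p = 0.00426, edgeR). The genes that were lower in both were IGFBP3, at -0.52 and -0.58 (SE 0.10 for each), and CCDC80, a secreted matrix protein named after its values were seen, at -0.43 and -0.50 (SE 0.10 for each). Both genes lost both calls without J82 parental replicate 1 or 2, up to adjusted p = 0.0986 and 0.099 for IGFBP3 and 0.17 and 0.127 for CCDC80 in edgeR. In CD44 High they also lost them without CD44 High replicate 1, IGFBP3 also without replicate 3 and CCDC80 without replicate 2, and in CD44v6 CCDC80 also without CD44v6 replicate 2. F3 fell by 0.48 (SE 0.09, adjusted p = 0.0105, edgeR) in J82 CD44 Low, with adjusted p = 0.0569 in edgeR without J82 parental replicate 2. IGFBP3 rose by 0.42 (SE 0.10, adjusted p = 0.0413, edgeR) in RT-112 CD44 Low, and lost the call in every omission of a library other than CD44 Low replicate 3, up to adjusted p = 0.189 in edgeR. NUAK2, a stress kinase named after its values were seen, was at 0.77 (SE 0.18, adjusted p = 0.023, edgeR) in J82 CD44 Low and at -1.04 (SE 0.25, adjusted p = 0.0429, edgeR) in RT-112. NUAK2 lost the call in every omission other than J82 CD44 Low replicate 3 and RT-112 parental replicate 3, up to adjusted p = 0.11 and 0.205 in edgeR.

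Of the 7 partners and cofactors, VGLL3, which binds TEAD in the place of YAP, was the one that passed in CD44 High against CD44 Low cells, in J82 at -0.98 (SE 0.14, adjusted p = 0.00049, edgeR). It was at 188 ± 7.38 CPM in J82 parental, 306 ± 38.5 in CD44 Low, 160 ± 2.79 in CD44 High and 212 ± 43.8 in CD44v6 cells, and CD44 Low also exceeded parental cells by 0.73 (SE 0.14, adjusted p = 0.0106, edgeR). The latter call was lost without J82 parental replicate 2 and without CD44 Low replicate 1, up to adjusted p = 0.0611 in edgeR. TAZ (WWTR1) was at 43.3 to 53.5 CPM in the group means of both lines and was not called in any contrast. The parental lines differed in TEAD4, TEAD3 and VGLL4: TEAD4 was at 24.3 ± 1.74 CPM in J82 and 9.86 ± 1.10 in RT-112, TEAD3 at 7.58 ± 0.757 and 17.9 ± 1.77, and VGLL4 at 11.9 ± 1.11 and 28.3 ± 2.40. VGLL1 was at 0 counts in all 12 J82 libraries, which allows up to 3 counts in a library, and at 464 to 802 counts in RT-112. TEAD2 was under 1 CPM in the mean of every group.

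Among the Hippo kinases and upstream regulators 3 were higher and 4 lower of 22 in J82 (31.8%), and 1 higher and 2 lower of 21 in RT-112 (14.3%), in CD44 High against CD44 Low cells, beside 15.7% and 16% of all genes. The RT-112 share was thus near that of all genes. TAOK3, a kinase above MST, was the largest increase called in J82 at 0.43 (SE 0.12, adjusted p = 0.0303) and lower in RT-112 at -0.26 (SE 0.08, adjusted p = 0.0432) with edgeR. The TAOK3 call was lost in J82 without CD44 Low replicate 2, CD44 High replicate 2 or CD44 High replicate 3, up to adjusted p = 0.102 in edgeR. In RT-112 it was lost in every omission other than CD44 High replicate 3, up to adjusted p = 0.11 in edgeR. DCHS1, an atypical cadherin, was the largest decrease called in J82, from 8 to 13 counts in the CD44 Low libraries to 0 in all CD44 High ones. In RT-112 AMOTL1, an angiomotin, rose by 0.72 (SE 0.20, adjusted p = 0.0279) and STK3, the kinase MST2, fell by 0.35 (SE 0.11, adjusted p = 0.0499) with edgeR. AMOTL1 lost the call without CD44 Low replicate 1, CD44 High replicate 1 or CD44 High replicate 3, up to adjusted p = 0.115 in edgeR, and STK3 in every omission other than CD44 Low replicate 3, up to 0.208. AMOTL1 was also higher in CD44v6 than in CD44 Low cells of both lines, by 0.57 (SE 0.14, adjusted p = 0.0699 in edgeR without J82 CD44 Low replicate 3) and 0.87 (SE 0.20, adjusted p = 0.0601 in edgeR without RT-112 CD44 Low replicate 1). NF2, the tumour suppressor merlin that activates LATS, was named after its values were seen: it was at 0 or 1 count in every J82 library and at 2300 to 3188 counts in RT-112. AMOT, the founding angiomotin and also singled out by its values, showed the reverse, with 0 counts in all RT-112 libraries and 71 to 265 counts in J82.

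The SRF and MRTF targets gave 2 higher and 0 lower of 11 in J82 (18.2%), and 2 higher and 1 lower of 10 in RT-112 (30%), in CD44 High against CD44 Low cells, beside 15.7% and 16% of all genes. The J82 share was thus near that of all genes. TPM1, an actin-binding tropomyosin, was higher in both, by 0.65 (SE 0.13, adjusted p = 0.00355) and 0.44 (SE 0.11, adjusted p = 0.0144) with edgeR. FHL2, a LIM domain co-regulator, was higher in J82 by 1.48 (SE 0.10, adjusted p = 1.12e-06, edgeR), from 20.7 ± 2.13 to 59.8 ± 3.63 CPM, and at -0.27 (SE 0.13, adjusted p = 0.16, edgeR) in RT-112. In RT-112 the smooth muscle genes TAGLN and ACTA2 went opposite ways, at 0.65 (SE 0.19, adjusted p = 0.0372) and -1.14 (SE 0.31, adjusted p = 0.027) with edgeR. Both lost the call without CD44 Low replicate 1, CD44 Low replicate 3 or CD44 High replicate 1, TAGLN also without CD44 High replicate 3 and ACTA2 without CD44 High replicate 2, up to adjusted p = 0.145 and 0.103 in edgeR. ACTA2 was low there, at 4.37 ± 0.636 CPM in CD44 Low and 1.92 ± 0.564 in CD44 High cells.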

How the data were processed

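The labels' protocols describe total RNA from cultured cells, purified on columns and sent to a company for sequencing. One table of raw counts per gene symbol was deposited for the 24 libraries. HISAT2, StringTie and GRCh37 are named in the submitters' processing notes. The counting step, the annotation and the use of strand are not given in the sources used here. Reads shared with antisense neighbours of YAP1 (11.2% of its exon bases in GENCODE 29), CCN2 (8.34%), CRIM1 (2.99%) and AXL (1.37%) can therefore not be told apart, and AMOTL2 and AJUBA share 3.91% and 1.05% with genes on the same strand.

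Each line's 12 libraries were fitted with edgeR 4.0.16 (R 4.3.3) after filterByExpr and TMM scaling, and contrasts were tested two-sided with the quasi-likelihood test. Genes with a Benjamini-Hochberg adjusted p under 0.05 over all genes tested were called. Parental lines and differences between lines were fitted on all 24 libraries in 8 groups. Fold changes are log2 and carry SE. The labels call the replicates biological and do not say whether they are separate cultures, so p-values measure the spread between these samples. Replicates differed by more than counting noise in all 24 pairs of 1 group.

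The members and lists were chosen with earlier results of these data known. Besides the members, the genes named were the list genes called with 1 sign in both lines, the largest called increase and decrease per list and line in CD44 High against CD44 Low, and the 5 genes most like ANKRD1 among those averaging log2 CPM of 3 or more in both lines, 1 of which is not reported here. Replicate numbers were taken to pair samples where the correlation of their deviations was over 0.1 for all 3. This held in J82 CD44v6 against CD44 High alone (r = 0.11, 0.11 and 0.25), where a replicate block called 0 members, as the fit without it did. Alternatives were DESeq2 1.42.0, other scalings, no filter, other sets of libraries, a replicate block and leaving out each library. The fit was tested on simulated counts. Figures were drawn with matplotlib 3.10.9.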

Additional observations from a re-analysis of the deposited data

Results flagged for a closer look

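Among the genes named, CCN2, FHL2 and TAOK3 had groups that did not overlap, in opposite directions in J82 and RT-112. In CD44 High against CD44 Low, 34.5% of all genes did not overlap in J82 and 30.4% in RT-112. In CD44v6 against CD44 Low these shares were 23% and 36.9%. The share of all genes with opposite directions was not counted. FHL2 and TAOK3 had been named for their large changes in CD44 High against CD44 Low cells. The difference between the lines was not tested for these contrasts. CCN2 in CD44 High against CD44 Low cells was -0.83 in J82, with all CD44 High libraries below all CD44 Low ones, and 0.38 in RT-112, with all of them above. FHL2 in the same contrast was 1.48 in J82 and -0.27 in RT-112, where it was not called. TAOK3 was 0.43 in J82 and -0.26 in RT-112 in CD44 High against CD44 Low cells, and 0.38 and -0.33 in CD44v6 against CD44 Low cells.

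Against parental cells the difference between the lines was tested with edgeR, and no member passed. Among the other genes named, the J82 minus RT-112 difference in CD44 Low was 1.79 for NUAK2 (SE 0.30, adjusted p = 0.00339) and -1.26 for FHL2 (SE 0.17, adjusted p = 0.000523) with edgeR. CCDC80 differed by -0.65 in CD44 High (SE 0.14, adjusted p = 0.048) and by -0.68 in CD44v6 cells (SE 0.14, adjusted p = 0.0464) with edgeR. The CCDC80 calls were lost with other scalings, with no filter, with a replicate block and in 9 of 12 omissions of a library each, up to adjusted p = 0.178 and 0.189 in edgeR. NUAK2 and CCDC80 were chosen after their values were seen.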

How the results depend on the processing

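The share of all genes called was counted for the edgeR fits above alone, not for the alternatives given here. Whether an alternative called more genes in general is therefore not shown. Counts of members called that moved by over 1.5 times were these. In J82 CD44 Low against parental cells, 2 became 1 with no filter, 5 with DESeq2 and 7 with only the compared groups fitted, and ran from 1 to 2 with a library left out. AJUBA missed the threshold in each of those omissions, and leaving out J82 CD44 Low replicate 3 brought CCN2 past it. CCN2 and LATS2 were called higher with DESeq2. With only the compared groups CCN2, LATS2, CCN1 and TEAD1 were called higher. With all 24 libraries in 1 fit the count stayed at 2, with CCN2, higher, in the place of AJUBA. In RT-112 CD44 Low against parental cells, 1 became 2 with DESeq2, with only the compared groups and with all 24 libraries in 1 fit, AXL being added, and 0 to 2 with a library left out. In J82 CD44 High against parental cells, 0 became 1 (ANKRD1) with a replicate block, with DESeq2 and with only the compared groups. In J82 CD44v6 against parental cells, 0 became 1 (ANKRD1) with the block and with DESeq2, and 0 to 1 with a library left out. In RT-112 CD44v6 against parental cells, 0 became 1 with DESeq2 and with only the compared groups. The differences between lines in CD44 Low and in CD44v6 against parental cells each went from 0 to 1 with DESeq2. The 10 calls between the parental lines held in all alternatives run.

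Outside J82 CD44v6 against CD44 High, replicate numbers did not reach a correlation over 0.1 for all 3 pairs. In J82, each CD44 Low and each CD44 High replicate still correlated best with the parental replicate of its own number. In J82 CD44 Low against parental cells those correlations were 0.05, 0.03 and 0.05. The block brought that contrast from 2 to 3 calls, adding CCN2. Among wider list genes, only the compared groups gave 5 in place of 13 in J82 CD44v6 against CD44 Low and 7 in place of 15 in CD44 High against CD44 Low of RT-112. Leaving out a library gave 9 to 14 and 5 to 13 in J82 CD44 High and CD44v6 against CD44 Low, and 4 to 13 and 5 to 13 in RT-112. Single-gene values smaller than their SE, and all those in CD44v6 against CD44 High, were left out of the next count. Of 2151 values of single genes under alternatives, 162 lost a call, 39 gained one and 1948 were counted as unchanged. For members in CD44 High or CD44v6 against CD44 Low, unchanged meant a shift smaller than the replicate SD. Elsewhere it meant the same direction and side of the threshold. Where direction was compared, it turned in 2 values. CCN2 in J82 CD44v6 against parental cells ran from -0.0627 without CD44v6 replicate 2 to 0.45. AXL in RT-112 CD44v6 against parental cells ran from -0.000553 without CD44v6 replicate 3 to 0.52. The cause of these changes was not tested.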
